A study of Mus musculus with 9 samples.

Results

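The 9 mouse genes that encode the subunits of AMPA and kainate glutamate receptors were followed across 9 RNA-seq libraries of sorted neuronal nuclei. They were chosen by name, Gria1 to Gria4 for AMPA receptors and Grik1 to Grik5 for kainate receptors. Earlier results of these data were known when these genes and the lists below were chosen. All 9 were found among the 55401 genes counted. The nuclei carried NeuN, a nuclear protein of neurons, and came from the cortex of mice 7 to 9 months old. The 3 groups held 3 libraries each. One group was wild type and received nothing. The second carried a transgene for tau with the P301S mutation, which causes inherited frontotemporal dementia, and received a scrambled control peptide. The third carried the same transgene and received the Cdk5i peptide, aimed at the tau kinase Cdk5. Either peptide was injected into the abdomen on alternate days, 20 mg for each kg of body weight. The labels name neither the transgenic line nor its promoter, nor do they say whether a library stands for an animal of its own. The p-values below therefore cover the spread among the libraries only, which may be technical. Genotype and injection cannot be told apart in a comparison with wild type.

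AMPA receptors are tetramers of the proteins GluA1 to GluA4, made from Gria1 to Gria4, and carry most of the fast excitatory current at synapses of the cortex. Kainate receptors combine GluK1 to GluK3, made from Grik1 to Grik3, which can form channels on their own, with GluK4 and GluK5, made from Grik4 and Grik5, which bind the ligand tightly but need one of the others to form a channel. Both families act before and after the synapse, on excitatory and inhibitory neurons, and both are tuned by auxiliary proteins and by editing of their RNA.

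The best known edited codon lies in the pore loop, where a glutamine codon is read as arginine after editing in Gria2 and, in part, in Grik1 and Grik2. The 57 bases of coding sequence around this codon are shown for 5 subunits, because they show how close the members are to one another and because the counts do not tell edited from unedited RNA. They were taken from GENCODE transcripts of the GRCm38 genome (release M21), run 5′ to 3′ on the coding strand, and have the edited codon, or its counterpart in the members that are not edited, in capitals.
Gria2: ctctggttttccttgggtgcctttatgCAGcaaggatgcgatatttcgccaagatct
Gria4: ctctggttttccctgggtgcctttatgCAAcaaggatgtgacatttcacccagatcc
Grik1: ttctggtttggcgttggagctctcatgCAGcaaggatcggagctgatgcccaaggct
Grik2: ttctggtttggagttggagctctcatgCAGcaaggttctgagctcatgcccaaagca
Grik5: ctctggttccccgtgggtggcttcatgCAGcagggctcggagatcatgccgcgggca
The codon lies at chr3:80706911-80706913 in exon 11 of 16 of Gria2, at chr9:4464137-4464139 in exon 12 of 17 of Gria4, at chr16:87940542-87940544 in exon 13 of 18 of Grik1, at chr10:49244329-49244331 in exon 13 of 17 of Grik2 and at chr7:25022497-25022499 in exon 15 of 20 of Grik5. All 5 genes are on the minus strand. The AMPA subunits shared 78.9 to 91.2% of these bases with each other and Grik1 to Grik3 shared 82.5 to 89.5%, whereas Grik4 and Grik5 shared 71.9%. Between Grik1 to Grik3 on one side and Grik4 and Grik5 on the other the identity was 57.9 to 70.2%, in the range between AMPA and kainate subunits or just under it (59.6 to 71.9%). The window ran across an exon boundary in the 4 AMPA genes and in Grik1 to Grik3, and lay within 1 exon in Grik4 and Grik5.

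The genes are long and mostly intron. Their spans run from 62.5 kb for Grik5 (ENSMUSG00000003378, chromosome 7, 25009849 to 25072346) to 694 kb for Grik2 (ENSMUSG00000056073, chromosome 10, 49094833 to 49788766), and annotated exons cover 1.40 to 12.8% of a span. Read pairs anywhere in the span were counted, so the values reflect nuclear RNA with its introns. Other genes on the same strand cover at most 2.47% of a span (Grik2), and pairs in such places were left out of the counts. Of the stretches of 40 bases in the members' transcripts, the read length used, at most 0.495% (Gria4) occurred in a transcript of another member. Introns, which make up most of the counted spans, and genes other than the members were not compared.

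Totals ran from 21584712 to 26715938 counts per library, and the 9 genes took 0.669 to 0.746% of them. Counts per member and library lay between 2415 (Grik5) and 49479 (Gria1), and all 9 passed the filter on low counts. The gene of NeuN, Rbfox3, measured 1106 to 1558 CPM, the count relative to the scaled library size. Every library held markers of both excitatory neurons (sum of 11 genes, 1279 to 1653 CPM) and inhibitory neurons (sum of 14 genes, 2585 to 3417 CPM), and striatal markers (11 genes) summed to 1702 to 3426 CPM. Hippocampal markers (5 genes) summed to 30.3 to 35.9 CPM and those of endothelium (5 genes) to 1.70 to 3.01 CPM. Oligodendrocyte (9 genes), precursor (7), astrocyte (8) and microglial (8) markers reached at most 117, 24.8, 559 and 159 CPM. Defining markers with under 10 counts in every library were Olig2 of precursors, C1qa, C1qb, C1qc and Tmem119 of microglia, Cldn5 and Ly6c1 of endothelium, and Dsp and Tdo2 of hippocampus.

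Levels of different genes were compared per length, as CPM per kb of the counted span. Gria2, whose subunit makes AMPA receptors nearly impermeable to calcium once edited, was highest at 9.45 ± 0.742 CPM per kb (SD over 9 libraries), followed by Gria1 at 5.24 ± 0.427, Gria3 at 3.01 ± 0.270 and Gria4 at 2.38 ± 0.254. Among kainate genes Grik5 stood at 2.27 ± 0.336, Grik2 at 1.95 ± 0.154 and Grik3 at 1.91 ± 0.253 CPM per kb. Grik1 at 0.833 ± 0.0968 and Grik4 at 0.750 ± 0.0370 CPM per kb were lowest. The ranges over the libraries separated Gria2 from Gria1, Gria1 from Gria3, and Grik3 from Grik1. Neighbours from Gria3 through Grik3 overlapped in range, as did Grik1 and Grik4. Within libraries, however, Gria3 was above Gria4 in all 9. Gria4 was above Grik5 in only 4 of the 9 libraries, and Grik5 above Grik2 in 6. Grik2 was above Grik3 in 4 and Grik1 above Grik4 in 7. On this scale the density of intron reads along a gene counts too, so these levels are not those of spliced messenger RNA.

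Grik4 was the steadiest member over the 9 libraries (301.2 to 347 CPM, a coefficient of variation of 4.93%). Grik5 varied most (115 to 172 CPM, 14.8%), then Grik3 (344 to 534 CPM, 13.2%).

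**Figure D1:**
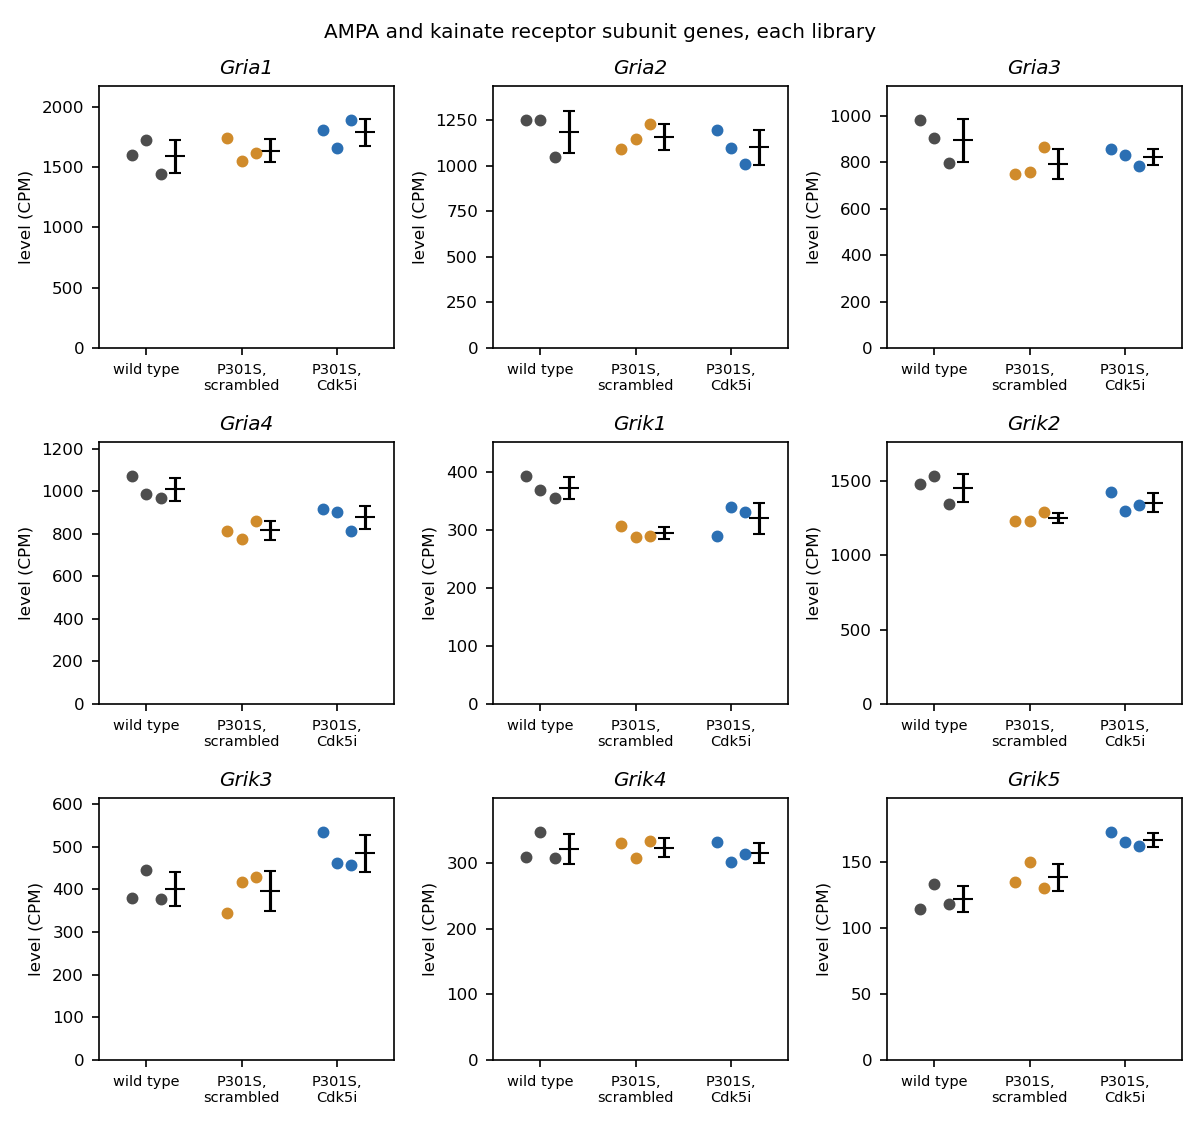
Level of each subunit gene in every library, in CPM, by group; points are libraries 1 to 3 from left to right, and black marks are the group mean with its SD (n = 3). Gria4, Grik1 and Grik2 are lower in each scrambled-peptide library than in any wild-type library, and Grik5 is highest in the Cdk5i libraries (162 to 172 CPM).

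The first comparison set P301S mice with scrambled peptide against wild type. Of the 9 genes, 0 passed the edgeR quasi-likelihood test at an adjusted p of 0.05, in a comparison where 0.081% of all 16046 tested genes passed. Before adjustment 4 had p under 0.05, 3 of them lower with scrambled peptide and 1 higher, against 10.1% of all genes. In each of the 3 comparisons the median standard error was 0.08 for the members and 0.14 for all genes. Smaller differences therefore reach p under 0.05 among the members, and such shares of all genes are no like background. Groups did not overlap for 3 members, all lower with scrambled peptide, against 16.3% of all genes (8.03% lower and 8.26% higher). Of the 9 fold changes 3 were positive, against 51.7% over all genes. The median log2 fold change of the members was -0.03, that of all genes 0.01.

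Grik1, the kainate subunit gene known for its expression in inhibitory neurons, measured 392, 368 and 355 CPM in the wild-type libraries and 306, 287 and 289 CPM in those with scrambled peptide. The sets did not overlap. On the log2 scale the fold change was -0.34 ± 0.07 (SE), and edgeR gave an adjusted p of 0.199. Gria4, the AMPA subunit of fast-spiking interneurons among other cells, measured 1070.3, 987 and 967 CPM in wild type and 812, 774 and 861 CPM with scrambled peptide. Again every scrambled-peptide library lay below every wild-type library. Its log2 fold change was -0.31 ± 0.08 (SE), with an edgeR adjusted p of 0.249. DESeq2 called both genes, with adjusted p values of 0.00653 for Grik1 and 0.0231 for Gria4. So did edgeR without a filter on low counts (0.00134 and 0.00583). Over all genes these 2 settings called 75 and 318 in this comparison, against 13 in the main edgeR fit. Limma called neither gene (adjusted p 0.137 and 0.153), nor did any fit with 1 library left out.

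Grik2, the most abundant kainate subunit gene by counts, measured 1483, 1533 and 1346 CPM in wild type and 1229, 1229 and 1291 CPM with scrambled peptide. These groups did not overlap either. The log2 fold change was -0.22 ± 0.08 (SE), and the edgeR adjusted p was 0.368. Gria3, the X-linked AMPA subunit gene, measured 981, 905 and 794 CPM in wild type against 749, 758 and 865 CPM with scrambled peptide, groups that overlap, with a log2 fold change of -0.18 (95% interval -0.37 to 0.02).

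Gria1 and Gria2, the pair that forms most AMPA receptors of excitatory cortical neurons, had log2 fold changes of 0.04 (interval -0.14 to 0.23) and -0.03 (interval -0.23 to 0.16). Grik3 and Grik4 lay at -0.01 (interval -0.23 to 0.20) and 0.01 (interval -0.14 to 0.16). These intervals include 0, which does not show that the 4 genes were alike in the groups. Grik5, which encodes the commonest high-affinity partner subunit, measured 115, 133 and 118 CPM in wild type and 135, 149.7 and 130.3 CPM with scrambled peptide. Only wild-type replicate 2 reached into the range of the scrambled-peptide libraries. The log2 fold change was 0.18 ± 0.07 (SE), with an edgeR adjusted p of 0.428.

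The summed level of the 14 inhibitory neuron markers was 2925 to 3417 CPM in wild type and 2987 to 3252 CPM with Cdk5i, but 2585 to 2869 CPM after scrambled peptide. The 3 scrambled-peptide libraries thus had the 3 lowest sums, as they had the 3 lowest levels of Grik2. No marker of the list was at 0, and 0 of 14 passed the test. In the comparison with wild type 8 of the 14 had positive fold changes. The sum rests on few genes, since Erbb4, Adarb2 and Nxph1, which span 1076, 566 and 300.6 kb, gave 81.8% of its counts. With the sum as a covariate in the edgeR fit the log2 fold changes against wild type were -0.06 for Grik2, -0.19 for Gria4 and -0.37 for Grik1. Fewer inhibitory nuclei and less RNA per nucleus cannot be told apart in such bulk libraries. Gene length moved with this comparison as well. Genes at least as long as Grik5, at 62.5 kb the shortest member, had a median log2 fold change of -0.03 (4129 genes). That cut lies far under the spans of Grik2, Gria4 and Grik1 (694, 378 and 394 kb). With a trend on gene length taken out of each library Grik2 was at -0.10, Gria4 at -0.23 and Grik1 at -0.25.

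**Figure D2:**
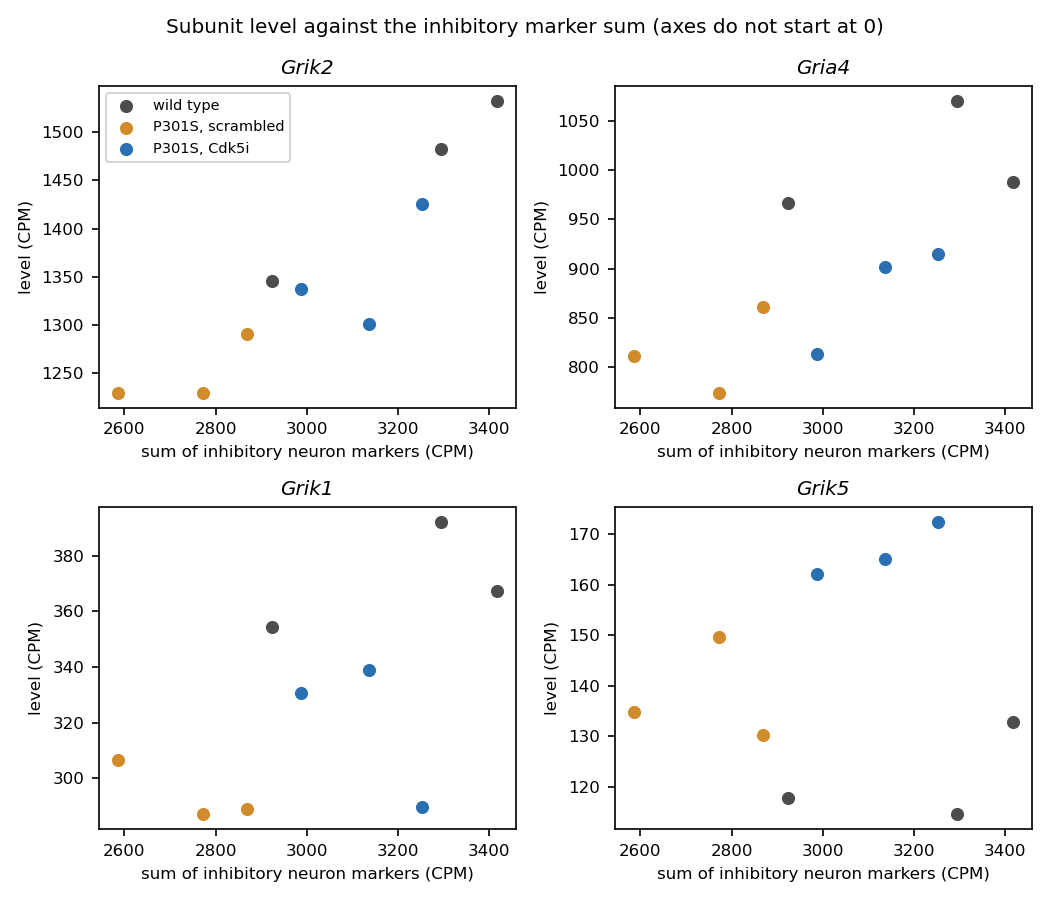
Level of Grik2, Gria4, Grik1 and Grik5 (CPM) against the summed level of 14 inhibitory neuron markers (CPM) in the 9 libraries; colours mark the groups, and the axes do not start at 0. The scrambled-peptide libraries have the lowest sums (2585 to 2869 CPM) and the lowest Grik2 levels, while Grik5 is highest in the 3 Cdk5i libraries (162 to 172 CPM).

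Cdk5i peptide was then set against scrambled peptide among P301S mice, both groups having been injected. This comparison and the first share the scrambled-peptide libraries. Again 0 of the 9 genes passed the edgeR test, in a comparison with 0.0125% of all genes past it. Before adjustment 2 members had p under 0.05, both higher with Cdk5i, against 5.33% of all genes. Groups did not overlap for 3 members, all higher with Cdk5i, against 10.3% of all genes (4.95% higher and 5.38% lower). Fold changes were positive for 7 of the 9 members and for 47.2% of all genes. The medians on the log2 scale were 0.12 and -0.01. Genes at least as long as Grik5, a cut under the spans of the other members, had a median of 0.04 here. With a trend on gene length taken out of each library, Gria1 to Gria4 were at 0.05, -0.11, -0.02 and 0.02. Grik1 to Grik5 were then at 0.04, 0.01, 0.22, -0.12 and 0.26.

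Grik5 measured 172, 165 and 162 CPM with Cdk5i, against 135, 149.7 and 130.3 CPM with scrambled peptide. Each Cdk5i library lay above each of the other 6 libraries. The log2 fold change was 0.27 ± 0.07 (SE), with an unadjusted p of 0.00263 and an adjusted p of 0.640 by edgeR over all genes. Grik3, which encodes a kainate subunit of low glutamate sensitivity, measured 534, 462 and 456 CPM in the Cdk5i libraries. Those with scrambled peptide were at 344, 418 and 429.8 CPM. The wild-type libraries lay at 380.3, 446 and 377 CPM, so the Cdk5i libraries were above both other groups. The log2 fold change between the peptides was 0.29 ± 0.10 (SE), with an edgeR adjusted p of 0.833. Without a filter on low counts edgeR called both genes, at adjusted p values of 0.0317 for Grik5 and 0.0133 for Grik3. That setting called 159 genes in all, against 2 with the filter. The standard error of Grik3 was 0.07 there against 0.10 with the filter, and that of Grik5 was 0.07 in both.

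Grik2 also separated the peptides without passing the test. Its Cdk5i libraries measured 1425, 1301 and 1338 CPM, each above the scrambled-peptide libraries, for a log2 fold change of 0.12 (interval -0.05 to 0.28). Grik1 was at 289.7, 339 and 331 CPM and Gria4 at 915, 902 and 813 CPM with Cdk5i, both groups overlapping those with scrambled peptide. Their log2 fold changes were 0.12 (interval -0.04 to 0.28) and 0.10 (interval -0.06 to 0.27).

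Of the other AMPA genes, Gria1 measured 1811, 1662 and 1889.6 CPM with Cdk5i against 1740.0, 1554 and 1617 CPM with scrambled peptide (log2 fold change 0.13). Gria2 was at 1199, 1096 and 1009.7 CPM with Cdk5i against 1091, 1148 and 1232 CPM (-0.07). Gria3 and Grik4 had log2 fold changes of 0.06 and -0.03. The groups of all 4 genes overlapped.

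Markers of striatal projection neurons, which lie under the cortex, summed to 2541 to 3426 CPM in the Cdk5i libraries, above the 1702 to 2538 CPM of those with scrambled peptide, while wild type spanned 1812 to 2854 CPM. None of the 11 was at 0, 9 had positive fold changes between the peptides and 0 passed the test. The sum need not follow most of its markers. With scrambled peptide against wild type 9 of the 11 were positive (median log2 fold change 0.30), yet the mean sum was lower (2186 against 2266 CPM). With this sum as a covariate, an alternative added after seeing the data, Grik3 had a log2 fold change of 0.10 between the peptides and Grik5 one of 0.19. With the inhibitory sum these values were 0.04 and 0.19. Leaving out scrambled-peptide replicate 1 or Cdk5i replicate 1, the libraries with the lowest and highest Grik3, gave 0.20 and 0.21 for Grik3.

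**Figure D3:**
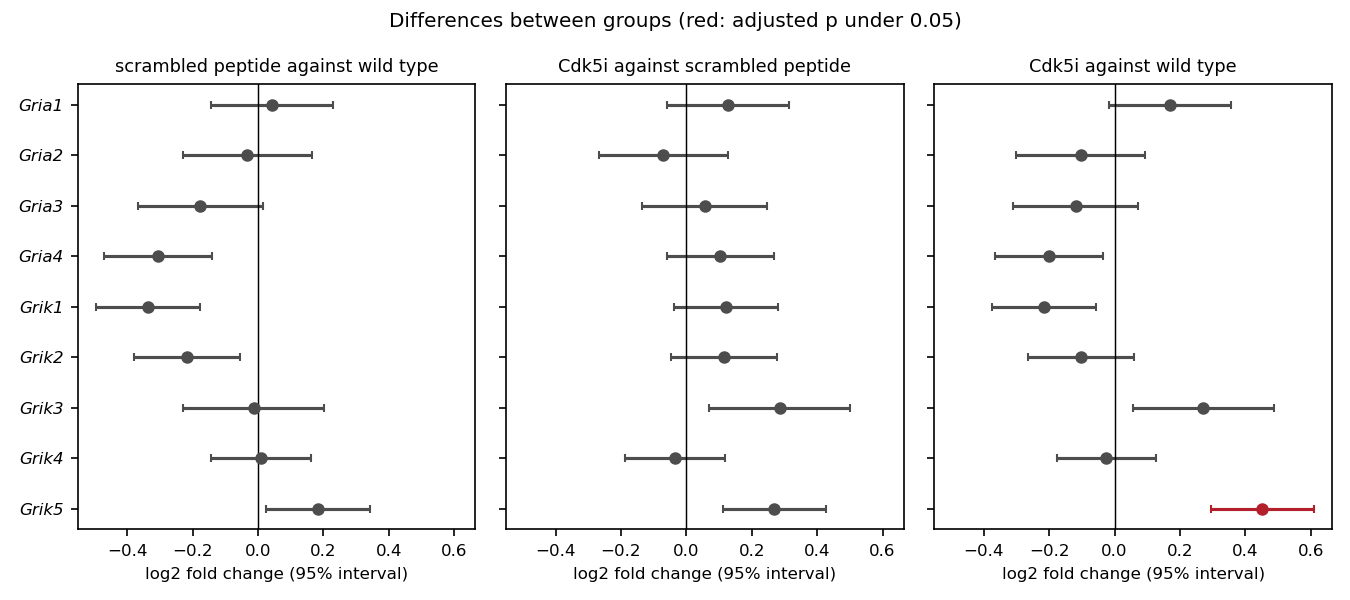
Log2 fold change of the 9 subunit genes in the 3 comparisons, with 95% intervals from the edgeR fit; a value above 0 is higher in the group named first, and red marks an adjusted p under 0.05. Grik5 is to the right of 0 in all 3 comparisons (0.18, 0.27 and 0.45) and passes in the third.

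The third comparison set P301S mice with Cdk5i peptide against wild type. It shares its libraries with the other 2 comparisons and is no independent repeat of either. Grik5 rose 1.37-fold, from 122 ± 9.80 CPM in wild type to 167 ± 5.24 CPM with Cdk5i (SD, n = 3), the one member of 9 past the edgeR test. In this comparison 0.0748% of all genes passed. Its lowest Cdk5i library (162 CPM) was well above its highest wild-type library (133 CPM). The log2 fold change was 0.45 ± 0.07 (SE; 95% interval 0.29 to 0.61), with an edgeR adjusted p of 0.0450, just under the threshold.

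The direction and size of the Grik5 difference held in all 20 alternative analyses (0.38 to 0.52 on the log2 scale), but the call held in only 6, with adjusted p values of 3.70e-07 to 0.272. It was kept by DESeq2, by limma and by edgeR without a filter on low counts, a fit with the limit given above. Among the left-out libraries it was kept only without wild-type replicate 2. It was lost without wild-type replicate 1 or 3 (edgeR adjusted p = 0.256 and 0.272), Cdk5i replicate 1, 2 or 3 (0.169, 0.0971 and 0.0521) or scrambled-peptide replicate 1, 2 or 3 (0.0536, 0.0559 and 0.0579), and with the replicate number as a block (0.158). With the inhibitory sum as covariate the log2 fold change was 0.47, and with the striatal sum 0.38 (edgeR adjusted p = 0.0435 and 0.135). All 11 striatal markers had positive fold changes in this comparison, with 0 past the test.

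Besides Grik5, 3 members had unadjusted p under 0.05, which makes 4 of 9 against 11% of all genes. Grik3 was higher with Cdk5i, at a log2 fold change of 0.27 ± 0.10 (SE), while Grik1 and Gria4 were lower, at -0.22 ± 0.07 and -0.20 ± 0.08. All 4 had groups that did not overlap, 2 in each direction, against 16.3% of all genes (8.03% higher and 8.22% lower). Their edgeR adjusted p values were 0.357, 0.324 and 0.372 for Grik3, Grik1 and Gria4. Gria1 had a log2 fold change of 0.17 (interval -0.02 to 0.36), Gria2 of -0.10 (interval -0.30 to 0.09), Gria3 of -0.12 (interval -0.31 to 0.07), Grik2 of -0.10 (interval -0.26 to 0.06) and Grik4 of -0.02 (interval -0.18 to 0.13).

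The make-up of each family was described as shares of its summed level per kb, with no test. The AMPA sum was 20.6 ± 1.75 CPM per kb (SD, n = 3) in wild type. It was 19.7 ± 0.821 in the scrambled-peptide group and 20.0 ± 0.967 in the Cdk5i group, and all groups overlapped. Gria2 made up the largest share, 47.3 ± 0.638% in wild type, 48.4 ± 1.60% after scrambled peptide and 45.4 ± 1.89% after Cdk5i. Gria1 held 24.2 ± 0.965, 26.1 ± 1.92 and 28.1 ± 2.35%, and Gria4 13.0 ± 0.822, 10.96 ± 0.221 and 11.6 ± 0.496%, in the same order of groups. By counts rather than per length Gria1 held the largest mean share, 33.99, 37.2 and 38.98%, against 25.3, 26.3 and 23.98% for Gria2. Annotated exons cover 12.8% of the Gria2 span and 1.67 to 3.55% of the spans of the other AMPA genes. The part of this difference in the Gria2 share was not tested.

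The kainate sum had means of 7.53 ± 0.490 CPM per kb for wild type, 7.29 ± 0.247 for scrambled peptide and 8.33 ± 0.330 for Cdk5i. By library it measured 7.39, 8.08 and 7.13 in wild type, 7.02, 7.49 and 7.38 with scrambled peptide, and 8.71, 8.15 and 8.14 with Cdk5i. The Cdk5i libraries were the highest 3, wild-type replicate 2 lying just below them. Grik5 took 25.9 ± 0.915% of the sum in wild type, 30.3 ± 1.90% after scrambled peptide and 32.0 ± 0.393% after Cdk5i, while Grik2 took 27.8 ± 0.951, 24.7 ± 0.899 and 23.4 ± 0.364%. In wild type Grik2 was thus the leading kainate gene by mean share and in both P301S groups Grik5 was. By counts rather than per length Grik2 held 51.3 to 54.5% of the kainate family in the group means and Grik5 4.56 to 6.31%, since Grik2 is the longest member and Grik5 the shortest.

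**Figure D4:**
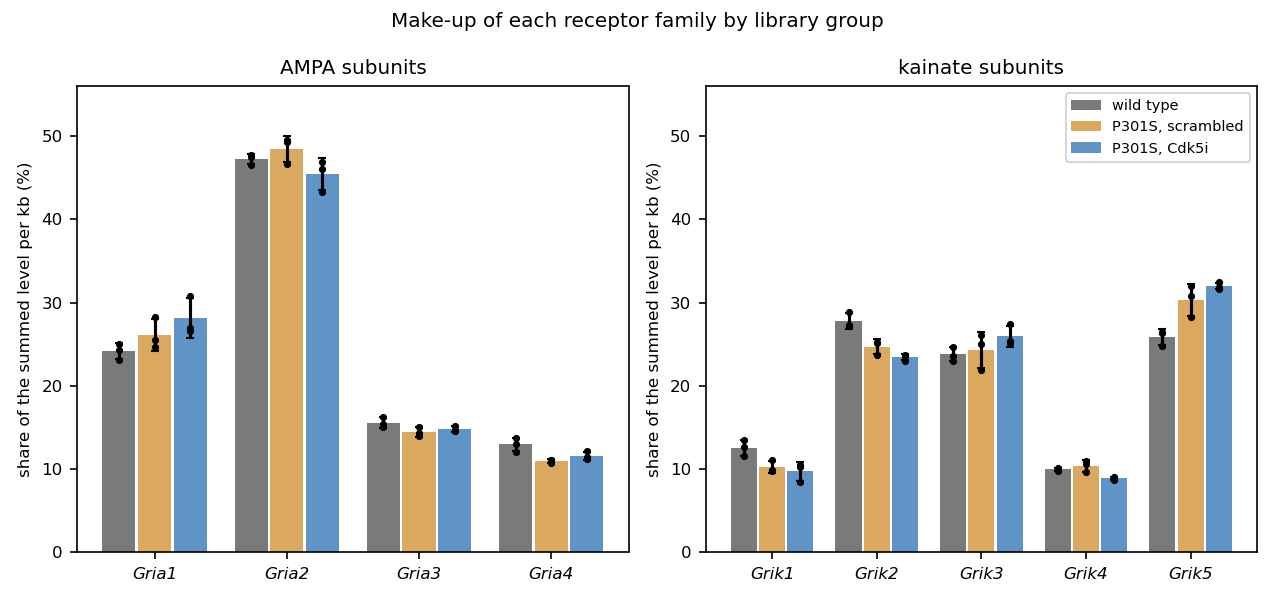
Share of each subunit gene in the summed level per kb of its family (%), by group; bars are means, error bars the SD (n = 3) and points the libraries. The Grik5 share is 25.9% in wild type and 32.0% with Cdk5i, and the Grik2 share 27.8 and 23.4%.

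Genes that assemble, carry or edit these receptors came from 4 lists with 40 genes, of which 39 could be tested. Pick1, the gene of a protein that binds GluA2, had at most 12 counts in a library. In each comparison 0 of 39 passed the edgeR test. Before adjustment 1 gene was higher and 0 lower with scrambled peptide against wild type, 5 were higher and 0 lower with Cdk5i against scrambled peptide, and 7 were higher and 1 lower with Cdk5i against wild type. Background shares at that level were 4.86% higher and 5.2% lower in the first, 2.87% and 2.46% in the second, and 5.73% and 5.3% in the third comparison.

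All 5 genes of the comparison between the peptides were AMPA receptor auxiliary subunits, out of 20 such genes. Cnih3, a cornichon that carries AMPA receptors out of the endoplasmic reticulum and slows their closing, measured 103 ± 10.9 CPM (SD, n = 3) after Cdk5i against 80.1 ± 8.38 CPM after scrambled peptide. This is a log2 fold change of 0.36, with an edgeR adjusted p of 0.636. Shisa9, whose product CKAMP44 alters desensitisation, measured 881 ± 50.8 and 717 ± 72.3 CPM, a log2 fold change of 0.30 with an edgeR adjusted p of 0.667. The other 3, Shisa6 (0.28), Gsg1l (0.27) and Shisa8 (1.44, with a mean of only 18.4 counts), were named after their values were seen. In each of the 5 every Cdk5i library lay above every scrambled-peptide library, as did those of 4.95% of all genes. The 5 were picked by p in this same comparison, so this separation adds no support. Of the 20 auxiliary genes 18 had positive fold changes (median 0.11), where 47.2% of all genes did. The striatal and inhibitory marker sums given above were also higher with Cdk5i in this comparison. Over all genes the fold change rose with gene length (Pearson's r 0.22 with log2 length), and the 47.2% is not matched for length. The part of these sums and of length in the values of the auxiliary genes was not tested.

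Against wild type 19 of the 20 auxiliary genes were positive with Cdk5i (median 0.14; 48.8% of all genes were), and 12 with scrambled peptide (median 0.04). These comparisons share the wild-type libraries, and the share of all genes is not matched for length. With Cdk5i the lowest p values belonged to Cacng8 (53.7 ± 3.05 against 45.1 ± 2.47 CPM, SD, n = 3) and Cacng7 (32.2 ± 0.910 against 27.4 ± 2.85 CPM), members of the TARP family that anchors AMPA receptors at the synapse. Their log2 fold changes were 0.25 and 0.23, with edgeR adjusted p values of 0.243 and 0.331. Chosen after their values were seen, Cacng2 (0.27) and Epb41l1 (0.23) were the further higher genes outside the naming rule in this comparison, and Nptxr (-0.34), the gene of the neuronal pentraxin receptor, was the lower one. With scrambled peptide they belonged to Shisa6 (-0.19) and Shisa9 (-0.17), with edgeR adjusted p values of 0.500 and 0.526.

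**Figure D5:**
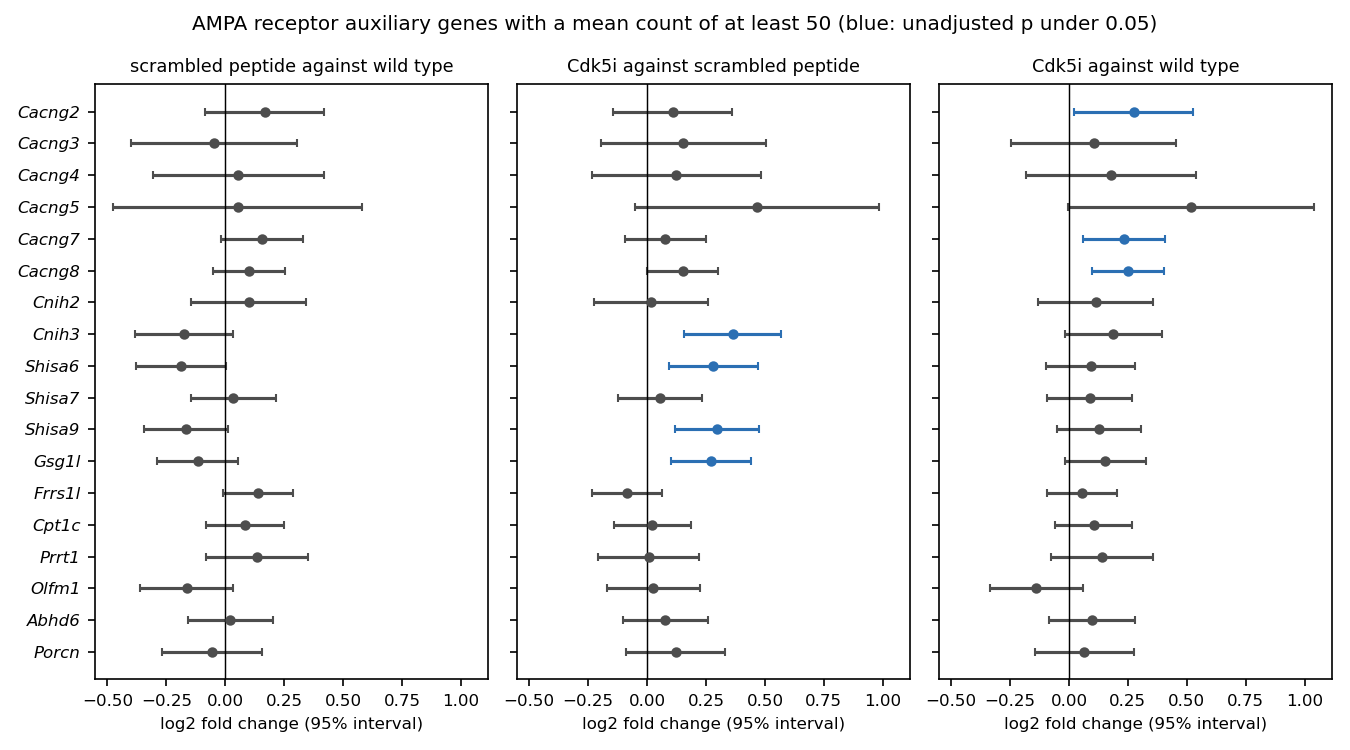
Log2 fold change with 95% interval for the 18 AMPA receptor auxiliary genes with a mean count of at least 50, in the 3 comparisons; blue marks an unadjusted p under 0.05. In the middle panel Cnih3, Shisa6, Shisa9 and Gsg1l are to the right of 0 (0.27 to 0.36), and no gene in any panel passes after adjustment.

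Kainate receptor partners were led by Neto1, an auxiliary subunit that slows kainate currents, which measured 377 ± 41.5 CPM after Cdk5i against 324 ± 34.6 CPM after scrambled peptide (log2 fold change 0.22, edgeR adjusted p = 0.922), and by Neto2 (0.13, edgeR adjusted p = 0.966). C1ql3, which encodes a secreted synaptic protein, had log2 fold changes of -0.25 with scrambled peptide and -0.25 with Cdk5i against wild type. Among 13 scaffold and trafficking genes tested, Dlg4, which encodes the scaffold PSD-95, measured 83.7 ± 7.16 CPM after Cdk5i, 76.6 ± 6.70 CPM after scrambled peptide, and 66.7 ± 3.22 CPM for wild type. Grip2, a scaffold that binds AMPA receptor tails, measured 59.1 ± 1.94, 53.1 ± 4.14 and 47.7 ± 3.80 CPM in the same order. Against wild type their log2 fold changes with Cdk5i were 0.33 and 0.31, with edgeR adjusted p values of 0.186 and 0.185. Epb41l1, whose product links GluA1 to the cytoskeleton, had a log2 fold change of 0.14 between the peptides (edgeR adjusted p = 0.922). Adarb1, the enzyme gene for the pore-loop edit of Gria2, measured 246 ± 13.3 CPM after Cdk5i, 232 ± 6.74 CPM after scrambled peptide and 218 ± 15.8 CPM for wild type, with a log2 fold change of 0.18 between Cdk5i and wild type (edgeR adjusted p = 0.380). Adar, the gene of the other editing enzyme, had log2 fold changes of 0.10, -0.05 and 0.06 in the 3 comparisons.

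Patterns over the 9 libraries were described by Pearson's r of log2 CPM, with no test, since the libraries share their group structure. Among the 36 pairs of members the median r was 0.18. The closest pairs were Gria3 and Gria4 (0.84), Gria4 and Grik2 (0.84), Gria3 and Grik2 (0.82) and Gria4 and Grik1 (0.79), followed by Gria2 and Gria3 (0.76) and by Grik3 and Grik5 (0.76), while Grik5 ran opposite to Gria4 and Grik1 (-0.52 each). Of 10810 other named genes with a mean count of at least 50, those most like Grik5 were Grip2 (0.98), the calcium channel gene Cacna1h (0.97) and Trerf1 (0.95). Those most like Grik1 were Cntnap5a (0.96), Pdzrn4 (0.96) and Pde11a (0.95). These are the highest values of a search over 10810 genes with only 9 libraries, where high values can come from the search itself.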

How the data were processed

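The authors deposited 1 table per library of raw counts, each the number of read pairs assigned to a gene. Per the file headers, featureCounts v2.0.0 counted whole genes (exons and introns) with paired reads and reversed strand on Ensembl GRCm38 release 102, leaving out, at its default, pairs that overlap several genes. The submitters' processing notes also name STAR 2.7.9a and DESeq2 1.36.0. Nuclear RNA was isolated with a kit for fixed tissue and made into libraries with a stranded total RNA kit for pico input, and 40 bases were read from each end, per the labels.

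Symbols came from the reference gene table (99.5% of 55401 genes). The members and lists were chosen with earlier results of these data known. The fits used R 4.3.3 and edgeR 4.0.16, with filterByExpr (16046 genes), TMM factors, and a robust quasi-likelihood fit of 3 group means to 9 libraries, with Benjamini-Hochberg adjustment over all genes at 0.05. Standard errors are the log2 fold change over the square root of F. CPM use TMM-scaled library sizes. PCR copies are not independent molecules. The genes named are all 9 members, any list gene past the threshold and, per list and comparison, 2 with the lowest p and a mean count of at least 50. Genes most alike are the 3 with the highest r to the member of lowest p in a comparison. Alternatives were DESeq2 1.42.0, limma 3.58.1, other scalings, filters, covariates and samples. The procedure was also run on simulated data, with the outcome not reported here. No 2 libraries of a group were copies (chi-square per gene 8.96 to 27.0).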

Additional observations from a re-analysis of the deposited data

How the results depend on the processing

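Of the 27 log2 fold changes of members, 19 kept their direction in all 20 alternatives, and 8, none larger in size than Gria3 with scrambled peptide against wild type (-0.18), did not. With the inhibitory marker sum as covariate, Gria2 (0.27), Gria3 (0.076) and Grik3 (0.28) turned for scrambled peptide against wild type, and Gria3 (-0.15) and Grik2 (-0.016) for Cdk5i against scrambled peptide. With the length trend as offset Grik3 (0.037) turned in the first and Gria3 (-0.017) in the second of these, and with the striatal sum Grik3 (0.0056) in the first. Leaving out 1 library gave -0.021 to 0.11 for Gria1, -0.11 to 0.0091 for Gria2, -0.074 to 0.080 for Grik3 and -0.020 to 0.070 for Grik4 with scrambled peptide against wild type, and -0.062 to 0.036 for Grik4 with Cdk5i against wild type. The cause was not tested.

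Members past the threshold numbered 2 with DESeq2 and with no low-count filter (Gria4 and Grik1) for scrambled peptide against wild type, 2 with no filter (Grik3 and Grik5) for Cdk5i against scrambled peptide, and for Cdk5i against wild type 2 with no filter and 0 with a mean count of at least 50, only the groups compared, non-robust dispersion, the length trend, the striatal sum or the replicate block. Leaving out 1 library gave 0 in the first 2 comparisons and 0 to 1 in the third.

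All genes past the threshold numbered 13, 2 and 12 in the 3 comparisons. They were 75, 26 and 115 with DESeq2 and 318, 159 and 408 with no filter. A mean count of at least 50 gave 5 in the first and 1 in the third, the replicate block 2 and 2, and non-robust dispersion 6 and 3. Only the groups compared gave 2 in the third. The inhibitory sum gave 2 and 1 in the first and second, and the striatal sum 28 and 9. Leaving out 1 library gave 2 to 17, 2 to 18 and 2 to 14.

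Same-numbered libraries did not deviate together (r -0.31 to 0.17 over 9 pairs), so the numbers were not taken as pairs. Under the replicate block the 9 members had 0 calls in each comparison. The median standard error per member was 0.08 on the log2 scale. Differences well above that size also did not pass with 3 libraries a group. Examples are Grik1 (-0.34) and Gria4 (-0.31) with scrambled peptide against wild type, at edgeR adjusted p values of 0.199 and 0.249.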
